A study of Mus musculus with 8 samples.

Results

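Oxidative phosphorylation is carried out by 5 protein complexes whose subunits are encoded in part by the mitochondrial genome and in part by the nucleus. Here the transcripts of both sets were set side by side in mouse liver cells. Genes were taken by name: the symbols that start with mt-Nd, mt-Co, mt-Cytb, mt-Atp, Nduf, Uqcr, Atp5, Cox4, Cox5, Cox6, Cox7 or Cox8, and Sdha, Sdhb, Sdhc and Sdhd. This named 106 genes, and the 100 with at least 10 unique molecular identifiers (UMIs, 1 per captured transcript molecule) in total were kept as members, of 17384 genes detected. Of these members 13 are mitochondrially encoded and 87 nuclear encoded. The other 6 fell under the minimum: Ndufa4l2 had 9 UMIs, Cox4i2 and Cox8b had 2 each, and Cox7b2, Cox8c and Atp5o had 0, while Atp5o.1 carried the counts of its gene.

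The cells came from livers of 8 male C57BL/6 mice, 6 to 8 weeks old per the labels, which received a chow control diet (4 mice) or a high fat, high cholesterol (HFHC) diet (4 mice) for 20 to 32 weeks. The design text gives cholesterol where HFHC titles give calorie, and the title of HFHC 4 carries animal number 14. Non-parenchymal cells of every mouse went through dead cell removal, staining for CD45, CD31, CD146 and PDPN, and a sort that enriched stromal and endothelial cells, before 10x Chromium single-cell sequencing, 1 library per mouse. The labels call the cell type stromal.

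As background, complex I (NADH dehydrogenase) and complex II (succinate dehydrogenase) pass electrons to ubiquinone, complex III (the cytochrome bc1 complex) passes them on to cytochrome c, and complex IV (cytochrome c oxidase) passes them to oxygen. Complexes I, III and IV pump protons across the inner membrane, and complex V (ATP synthase) uses the gradient to make ATP. Complex II is wholly nuclear encoded, while the other 4 need subunits made inside the mitochondrion from polycistronic transcripts of the mitochondrial DNA. Hepatocytes are rich in mitochondria.

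The mitochondrially encoded members were 7 of complex I, 1 of complex III, 3 of complex IV and 2 of complex V, with 43075, 21060, 83039 and 53317 UMIs in turn. The nuclear encoded members were 36 of complex I, 4 of complex II, 8 of complex III, 15 of complex IV (Ndufa4 counted here) and 15 of complex V, with 83906, 8108, 38973, 73417 and 84633 UMIs, besides 8 complex I assembly factors (Ndufaf genes) and Atp5s. Because a UMI stands for 1 molecule whatever its length, levels of different genes were compared without a length correction.

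The mitochondrial genes lie next to each other on chromosome M (mm10, GENCODE vM21) and some overlap, which bounds what can be said of single genes. The end of mt-Atp8 (chrM:7766-7969, plus strand) shares 43 bases with the start of mt-Atp6, and the end of mt-Nd4l (chrM:9877-10173, plus strand) shares 7 bases with mt-Nd4. On opposite strands, mt-Nd5 and mt-Nd6 share 14 bases at their ends. The last 120 bases of the first 2 genes are shown because reads in the shared stretch, in capitals, cannot be given to 1 gene of the pair, and both genes stand apart in the results.
mt-Atp8: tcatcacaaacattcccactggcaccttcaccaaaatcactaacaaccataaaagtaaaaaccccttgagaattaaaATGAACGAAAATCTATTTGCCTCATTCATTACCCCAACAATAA
mt-Nd4l: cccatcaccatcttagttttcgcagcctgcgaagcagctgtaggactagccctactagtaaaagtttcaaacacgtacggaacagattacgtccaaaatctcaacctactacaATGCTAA

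Barcodes found in several libraries were counted once, in the deepest of them. This left 3192 of the 3416 deposited cells, with 47 to 875 cells and 170448 to 2309209 UMIs per library. Before that step any pair among HFHC 1, 2 and 3 and controls 1 and 2 had 33 to 65 barcodes in common, and any other pair at most 4. No deposited cell had more than 10% of its UMIs from mitochondrial genes. Any cells above that value are absent from the shares below. In control 2, 63 of the 875 kept cells lay above 9%. Cells were put into 13 classes by marker transcripts, called LSEC-like (liver sinusoidal endothelial) and so on. Of the kept barcodes, 1317 were hepatocyte-like, which goes against the stromal label, with 670 of them in control 2 and 641 in HFHC 3. In these barcodes the median share of Malat1, a transcript kept in the nucleus, was 0% in both libraries, against 1.58 to 4.88% in LSEC-like cells. The hepatocyte threshold of 2% of UMIs from 12 hepatocyte genes was set after seeing the data, and 36 barcodes lay between 1 and 3%. LSEC-like cells of control 1 also held mesenchymal markers (median 0.121% of UMIs), and Des was at 0 in mesenchymal-like cells. Of the other markers of that gate, Upk3b was found in 82.5% of mesenchymal-like cells. Msln, Dcn and Col1a2 were also found in most of them, but Pdgfrb and Lrat in few. Upk3b and Msln are genes of mesothelial cells, and how much of this class is mesothelial was not tested. The cells of the erythroid gate are not called a cell type here.

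Per library, the mitochondrially encoded members made up 4.03, 5.23, 2.57 and 2.62% of all UMIs in the control libraries, in numerical order, and 4.18, 4.53, 0.729 and 2.66% in the HFHC libraries. The nuclear encoded members made up 2.48, 4.43, 3.31 and 2.44% in the controls and 2.33, 2.19, 5.46 and 3.22% in the HFHC libraries. The diets overlapped in both measures, and HFHC 3 held the lowest mitochondrially encoded share together with the highest nuclear share. Its ratio of mitochondrially to nuclear encoded UMIs was 0.133, while the other 7 libraries lay between 0.777 and 2.07.

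**Figure D1:**
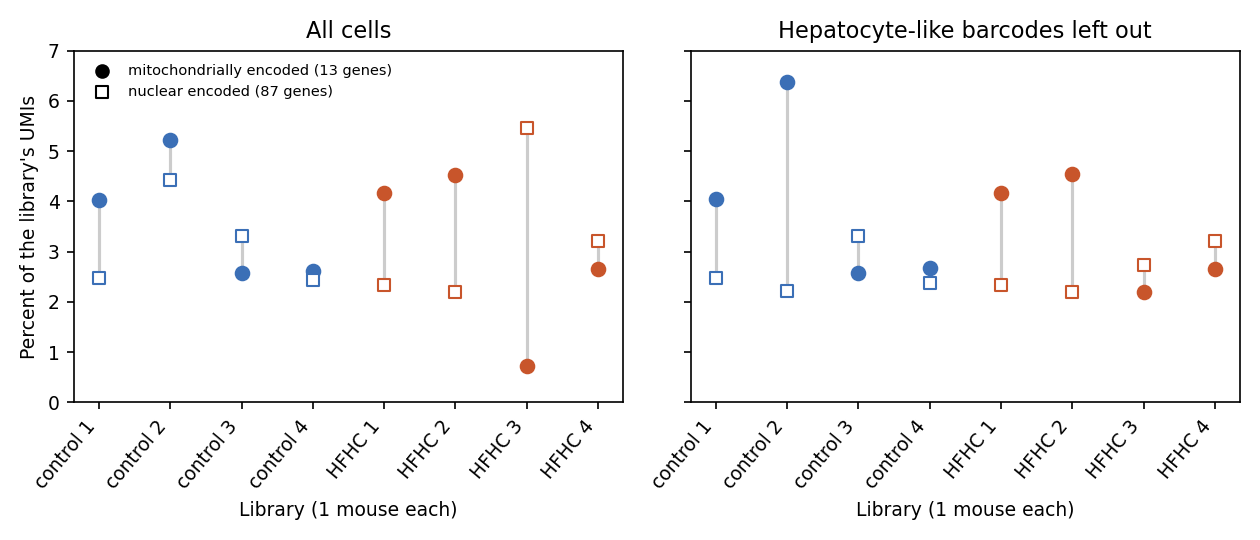
Share of each library's UMIs (y axis, percent) from the 13 mitochondrially encoded members (filled circles) and the 87 nuclear encoded members (open squares), with all cells (left) and without hepatocyte-like barcodes (right), 1 mouse per library, control diet in blue and HFHC diet in orange. HFHC 3 goes from 0.729 to 2.19% mitochondrially encoded when the hepatocyte-like barcodes are left out, and control 2 from 5.23 to 6.38%.

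Neither share differed between the diets beyond the spread of the libraries. The mitochondrially encoded share was 3.61 ± 1.27% (SD, n = 4) in controls and 3.02 ± 1.73% (SD, n = 4) in HFHC libraries, a difference of −0.588 percentage points (two-sided exact permutation p = 0.686). The nuclear share was 3.16 ± 0.932% against 3.30 ± 1.51% (SD, n = 4 each), a difference of 0.134 points (exact permutation p = 0.971), and the log2 ratio of both sums differed by −0.49 (exact permutation p = 0.8). All 3 adjusted p-values were 0.971, and the smallest p that 4 against 4 libraries allow is 0.0286. Within the 5 barcode-sharing libraries the 2 differences were −1.49 and −0.130 points, and within the other 3 libraries 0.0662 and 0.343 points. Without HFHC 3 the first difference was 0.176 points and the second −0.587 points, and the second was also below 0 without control 1 (−0.0928) or control 4 (−0.107). The first was −0.0496 points without control 2, and the second 0.555. Without the hepatocyte-like barcodes the shares of HFHC 3 were 2.19 and 2.74%, and the differences between diets were −0.524 and 0.0282 points.

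With all cells of a library summed, 0 of 6666 genes tested with edgeR's quasi-likelihood test passed an adjusted p of 0.05 (0%), and 0 of the 94 members tested did. At an unadjusted p under 0.05 edgeR found 54 genes, and DESeq2 found 0 genes adjusted and 126 unadjusted. The mitochondrially encoded members had a median log2 fold change (HFHC over control) of −0.39, with 12 of 13 below 0, and the 81 tested nuclear members one of 0.15, with 64 above 0, while all genes had a median of 0.06. Without HFHC 3 these medians were −0.07 for the mitochondrially encoded and −0.46 for the nuclear members. Without control 2 they were 0.04 and 0.56, and the nuclear median was −0.05 without control 1, 0.01 without control 3 and −0.08 without control 4. mt-Atp6, a subunit of the ATP synthase's proton channel, had the value −0.59 with an SE of 0.51 (edgeR adjusted p = 0.999), and mt-Co1, the catalytic subunit of cytochrome c oxidase, 0.05 with an SE of 0.51 (edgeR adjusted p = 0.999). The nuclear medians ran from 0.07 for complex I to 0.25 for complex V.

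Hepatocyte-like barcodes of control 2 and HFHC 3 differed most in the mitochondrially encoded members and little in the nuclear ones. In control 2, 48099 of 1074842 UMIs (4.47%) were mitochondrially encoded, and in HFHC 3 1182 of 1594474 (0.0741%). The ratio of HFHC 3 to control 2 was 0.0166 (95% interval 0.0156 to 0.0176), a 60.4-fold lower share in HFHC 3. The nuclear members made up 5.87% in control 2 and 6.68% in HFHC 3, a ratio of 1.14 (1.13 to 1.15). These are 2 libraries, 1 per diet, so there is no test, the intervals here and below cover counting error only, and diet and library cannot be told apart.

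All 13 mitochondrially encoded members were more than 1.5-fold lower in HFHC 3, where 8.33% of 6085 genes with at least 20 UMIs over both libraries were that much lower. The most abundant, mt-Atp6, had 13495 UMIs in control 2 and 303 in HFHC 3, or 12555 and 190.0 CPM (UMIs scaled to 1e6 per sum). mt-Co2, which takes electrons from cytochrome c, had 3536 and 114 UMIs (0.0217). mt-Co3, a core subunit of complex IV, had 10636 and 261 UMIs, and mt-Cytb, the only mitochondrially encoded subunit of complex III, 5945 and 134. The ratios of mt-Atp6, mt-Co3 and mt-Cytb, of 3 complexes, were 0.0151, 0.0165 and 0.0152. Of the complex I subunits, mt-Nd1 had 4260 and 102 UMIs, mt-Nd4 2982 and 64, and mt-Nd2 1884 and 42. The highest ratio was that of mt-Nd3, 0.0313 (0.0180 to 0.0508) from 366 and 17 UMIs, and the lowest that could be formed was that of mt-Nd5, 0.00648 (0.00133 to 0.0191) from 312 and 3. mt-Atp8 had 459 UMIs in control 2 and 0 in HFHC 3. Against a floor of 3 counts in that library (1.88 CPM), it was at least 227-fold lower than its 427 CPM in control 2.

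Of the 6085 genes, 20 had a ratio no higher than that of mt-Nd3, and 13 of these were the mitochondrially encoded members. The other 7 were the sinusoidal endothelial genes Dnase1l3 and Ehd3, the endothelial genes Ly6a and Aqp1, the immunoglobulin genes Igkc and Igha, and Hsd3b5, a steroid dehydrogenase of male mouse hepatocytes. They were named after their values were seen.

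The low share was spread over nearly all barcodes of HFHC 3. There, 253 of 641 hepatocyte-like barcodes had no mitochondrially encoded UMI, 633 had under 1%, the median was 0.0352% and the highest 4.72%. In control 2 none of 670 was without one, the median was 5.04%, and 26 lay above 9%, near the highest value of any deposited cell. The barcodes of HFHC 3 were the deeper ones, with a median of 1970 UMIs against 1084.5. Thinned to 500 UMIs each, with no barcode left out, 478 of 641 barcodes of HFHC 3 and 0 of 670 of control 2 had no mitochondrially encoded UMI. The hepatocyte marker genes held medians of 5.64 and 6.20%. The gate itself required at least 2% of UMIs from these genes, so their share cannot show that the barcodes of both libraries are alike. Control 4 had 4 hepatocyte-like barcodes with 4 mitochondrially encoded of 5480 UMIs, 0.0730% (Wilson 95% interval 0.0284 to 0.188%), and a nuclear share of 5.69%. A single barcode in HFHC 2 had 3 of 735 UMIs, and a single one in control 1 had 0 of 310.

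The nuclear members of the same barcodes had a median ratio close to that of all genes. A larger part of them lay above 1, and a smaller part was over 1.5-fold higher. Of the 85 with at least 20 UMIs, 74 had a ratio above 1, with a median of 1.14, against 3929 of 6085 genes and a median of 1.12. Ndufa12, Atp5s and Cox7a1, below, and the genes of mitochondrial RNA further on were named after their values were seen. Only 2 nuclear members were more than 1.5-fold higher (19.6% of all genes were) and 1 was more than 1.5-fold lower. Ndufa12, an accessory subunit of complex I, had 201 and 571 UMIs in control 2 and HFHC 3, a ratio of 1.91 (1.63 to 2.26), and Atp5s 8 and 21. Cox7a1, a complex IV isoform of heart and muscle, had 23 and 18 UMIs, with an interval of 0.268 to 1.02. Uqcrq, a small complex III subunit, had 2618 and 5029 UMIs (1.29), Atp5b, the catalytic beta subunit of ATP synthase, 2427 and 4236 (1.18), and Cox4i1, a nuclear core-associated subunit of complex IV, 1436 and 2216 (1.04).

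**Figure D2:**
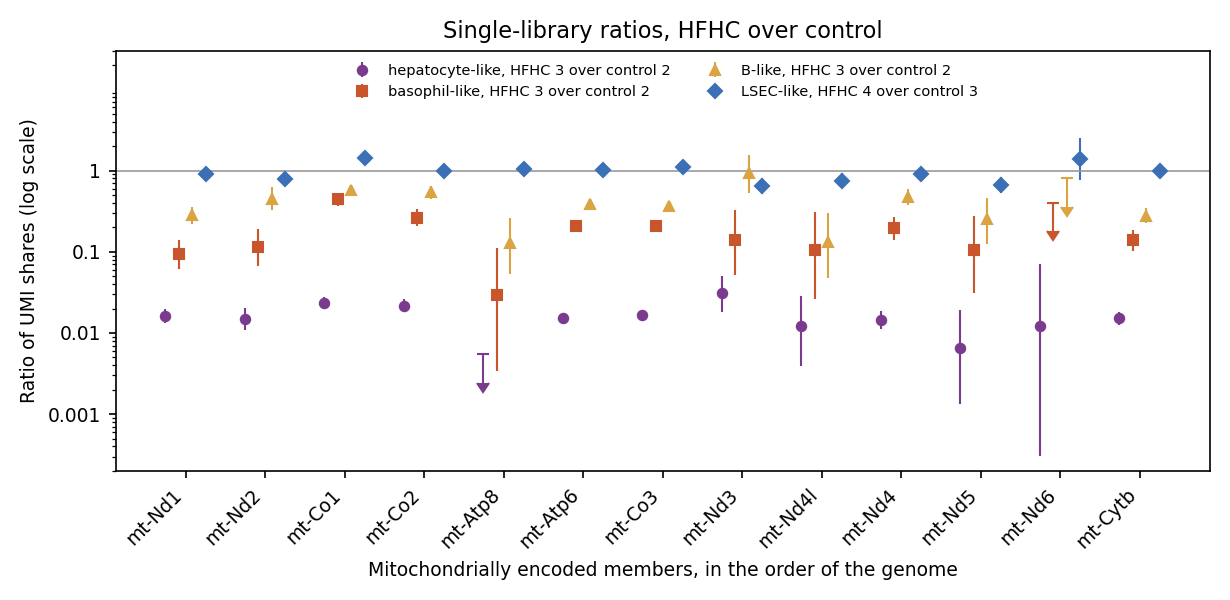
Ratio of the HFHC library's to the control library's share of UMIs (y axis, log scale) for the 13 mitochondrially encoded members in genome order, for pairs of single libraries in 4 gated classes; bars are 95% counting intervals, and arrows mark upper limits where the HFHC library had 0 UMIs. Hepatocyte-like ratios lie at or under 0.0313. Basophil-like and B-like ones lie above that and under 1, except basophil-like mt-Atp8 (0.0291, from 40 and 2 UMIs) and mt-Nd6 with 0 UMIs in HFHC 3 in both classes, and LSEC-like ones of HFHC 4 over control 3 around 1.

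Of the lists of other mitochondrial genes, 1 had a median ratio below 1 (biogenesis regulators, 0.927 over 5 genes). The electron carrier gene Cycs (cytochrome c) had 875 and 1868 UMIs in control 2 and HFHC 3, a ratio of 1.44, and Cyc1, the cytochrome c1 of complex III, 467 and 914 (1.32). The 14 genes of the tricarboxylic acid cycle had a median ratio of 1.41, with 5 over 1.5-fold higher and 0 lower, and the 77 measured genes of the mitochondrial ribosome one of 1.28, with 13 higher and 0 lower. Over all 6085 genes the median was 1.12, with 19.6% over 1.5-fold higher and 8.33% lower. Of 17 measured genes for transcription and stability of mitochondrial RNA, 5 were higher and 1 lower, with a median of 1.22. Among them Tfam, which packages mitochondrial DNA and takes part in its transcription, had 3 and 28 UMIs. Slirp, which stabilises mitochondrial messenger RNAs, had 158 and 353, and its partner Lrpprc 41 and 74. The 1 lower gene was Polg, of the mitochondrial DNA polymerase rather than of transcription, on only 13 and 8 UMIs (ratio 0.415). Of 12 hepatocyte transcripts 1 was higher and 4 were lower, such as Alb (albumin, ratio 0.492) and Serpina1c (0.320).

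In the other classes found in both libraries the same direction held at a smaller size. B-like cells had 6.88% mitochondrially encoded UMIs in control 2 (39 cells) and 2.74% in HFHC 3 (16 cells), a ratio of 0.399 (0.375 to 0.423), with 11 of 12 measured genes over 1.5-fold lower (16.8% of all genes). Basophil-like cells had 5.97% (16 cells) and 1.27% (27 cells), a ratio of 0.213 (0.197 to 0.230), with 12 of 12 lower (13.9% of all genes). The nuclear members were higher in HFHC 3 in both classes, at 1.62 and 2.26% in B-like cells (median ratio 1.41, all genes 1.11) and at 1.53 and 2.06% in basophil-like cells (median 1.44, all genes 1.07). Over 1.5-fold higher were 23 of 51 and 15 of 38 nuclear members, where 20.8 and 19.9% of all genes were. So in these 2 libraries the ratio to control 2 was lowest in hepatocyte-like barcodes, between in basophil-like and highest in B-like cells. The 3 intervals cover counting error only and hold no spread between cells or mice, so this order was not tested. Neutrophil-like cells of HFHC 3 had 0.484% (17 cells), T or NK-like cells 2.14% (66 cells) and monocyte or dendritic-like cells 2.10% (30 cells). Hepatocyte markers made up a median of 0.187 and 0.323% of UMIs in B-like cells of control 2 and HFHC 3, and 0.206 and 0.323% in basophil-like cells; their part in these ratios was not tested.

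Which mitochondrial gene gave the UMIs also differed between these libraries. In hepatocyte-like barcodes mt-Co1 made up 8.09% of mitochondrially encoded UMIs in control 2 and 11.5% in HFHC 3, in B-like cells 12.0 and 17.2%. mt-Atp8 went the other way, with 0.954% and 0% in hepatocyte-like barcodes, 1.99 and 0.636% in B-like cells and 1.66 and 0.227% in basophil-like cells, where mt-Co1 made up 10.8 and 22.6%. In LSEC-like cells mt-Co1 gave 2563 of 20483 mitochondrially encoded UMIs in control 3 and 4477 of 26269 in HFHC 4, while mt-Atp8 made up 2.79 and 2.82%. In vascular endothelial-like cells of control 2 and HFHC 4 mt-Co1 made up 13.4 and 16.6% and mt-Atp8 1.78 and 0.988%. In mesenchymal-like cells of control 1 and HFHC 1 mt-Co1 made up 19.6 and 16.0% and mt-Atp8 1.47 and 1.66%. The share of mt-Atp8 was thus lower in the HFHC library in the 4 pairs that contain control 2, and not in the pairs with control 3 or control 1. The share of mt-Co1 was higher in the HFHC library in each of these pairs except the mesenchymal-like one.

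At least 10 LSEC-like cells were found in 5 libraries, so here 1 HFHC library stood against 4 control libraries. The mitochondrially encoded share was 5.10, 8.16, 2.57 and 3.58% in the control libraries and 2.67% in HFHC 4, and the nuclear share 2.15, 2.85, 3.31 and 2.64% against 3.24%. HFHC 4 lay inside the range of the controls in both. The mean of the controls was 4.85 ± 2.44% (SD, n = 4) and 2.74 ± 0.481% (SD, n = 4), and the exact permutation p was 0.6 for each, where 4 against 1 allow no p under 0.2. In control 2, 25 of 63 LSEC-like cells lay above 9% mitochondrially encoded UMIs. With 1 HFHC library, the spread in edgeR's test and its SE come from the control libraries alone. In it 2 of 3758 genes passed (0.0532%), and 0 of 90 members did (DESeq2 64 genes and 0 members, 154 genes in edgeR at an unadjusted p under 0.05). The genes passing were 22 without control 1, 14 without control 3 and 5 without control 4. The mitochondrially encoded members had a median log2 fold change of −1.02 and the nuclear ones 0.36, and with controls 3 and 4 alone −0.08 and 0.24. Hepatocyte transcripts were also low in HFHC 4, with 8 of 8 tested below 0, 0 passing and a median of −1.71 (Serpina1c −4.07). As median share of UMIs per LSEC-like cell, the 12 hepatocyte genes made up 0.0380% in control 1, 0.217% in control 2 and 0% in control 3, control 4 and HFHC 4. Their part in the members' values was not tested. Complex IV and complex V members were the highest, with medians of 0.44 and 0.48, and complex II the lowest with −0.18; Sdhc, a membrane anchor of complex II, had −0.94 with an SE of 0.62 (edgeR adjusted p = 1). Between control 3 (554 cells) and HFHC 4 (561 cells), which shared 4 barcodes, the ratio was 1.04 (1.02 to 1.06) for the mitochondrially encoded and 0.978 (0.962 to 0.994) for the nuclear members. Over 1.5-fold lower were 2 of 13 and 2 of 81 (18.3% of all genes), and over 1.5-fold higher 0 of both (10.8%). The 2 nuclear ones, named after their values were seen, were Ndufaf4 (39 and 27 UMIs) and the complex I subunit Ndufs4 (207 and 149 UMIs), and the nuclear member with the highest ratio was Cox7a2l, which takes part in forming supercomplexes (259 and 467 UMIs, 1.46).

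Vascular endothelial-like cells were compared with LSEC-like cells of the same mouse in control 2 and HFHC 4. Their mitochondrially encoded share was 6.59 against 8.16% and 2.52 against 2.67%, their nuclear share 2.73 against 2.85% and 3.01 against 3.24%. Both were lower in the vascular cells of both mice, but 2 pairs allow no exact sign-flip permutation p under 0.5. With the library as a block, edgeR passed 198 of 1951 genes (10.1%, of which 102 or 5.23% of all were higher and 96 or 4.92% lower) and 0 of 86 members. Among these, Atp5b had the log2 fold change 0.78 with an SE of 0.31 (edgeR adjusted p = 0.103) and mt-Atp8 −0.91 with an SE of 0.33 (edgeR adjusted p = 0.0555). At an unadjusted p under 0.05 edgeR found 365 genes, and DESeq2 53 genes and 0 members adjusted. In HFHC 4 over control 2, vascular endothelial-like cells had a mitochondrially encoded ratio of 0.382 (0.363 to 0.403), with 12 of 12 genes over 1.5-fold lower (14.9% of all genes), and a nuclear one of 1.10, with 13 of 67 over 1.5-fold higher (22%). Mesenchymal-like cells went the other way: HFHC 1 (10 cells) over control 1 (15 cells) gave 1.90 (1.78 to 2.03) for the mitochondrially encoded members, 4.42 against 2.33%, with 10 of 12 over 1.5-fold higher (14.6% of all genes). Their nuclear members gave 0.739 (0.688 to 0.794), 2.20 against 2.97%, with 24 of 62 over 1.5-fold lower (17.8%). Before barcode copies were removed, HFHC 1 and control 1 had 53 barcodes in common, and control 1 kept 55 of its 129 cells.

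Across classes, the nuclear share set hepatocyte-like barcodes apart from all others with at least 10 cells in a library. Its 2 values, 5.87 and 6.68%, lay above the other named classes, which ranged from 1.48% in Kupffer or macrophage-like cells of HFHC 2 to 3.31% in LSEC-like cells of control 3. Within control 2 the share in hepatocyte-like barcodes was 2.06 times (2.00 to 2.13) that of LSEC-like cells, while their mitochondrially encoded share was 0.548 times. Within HFHC 3 it was 2.52 times that of T or NK-like cells and 2.20 times that of monocyte or dendritic-like cells. Cholangiocyte-like cells had 1.32 times the nuclear share of Kupffer or macrophage-like cells in HFHC 1 (2.64 against 1.99%) and 1.57 times in HFHC 2 (2.33 against 1.48%), and a mitochondrially encoded share of 1.22 and 0.816 times. Lymphatic endothelial (LEC)-like cells of control 4 had a lower nuclear share than its LSEC-like cells (2.21 against 2.64%).

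**Figure D3:**
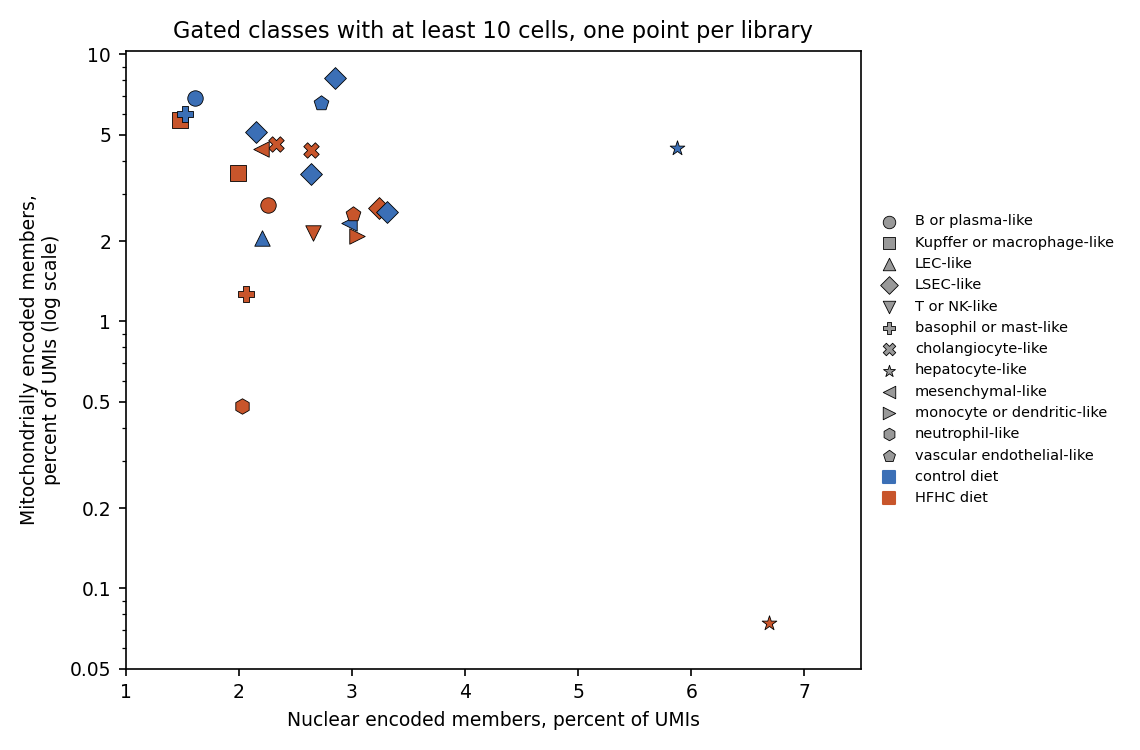
Nuclear encoded (x axis) against mitochondrially encoded members (y axis, log scale), both as percent of the UMIs of a gated class in 1 library, for classes with at least 10 cells; marker shape is the class and colour the diet. Both hepatocyte-like points lie right of all others, at 5.87 and 6.68%, and that of HFHC 3 lies lowest, at 0.0741%.

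Because B-like and basophil-like cells were found in both libraries rich in hepatocyte-like barcodes, the 3 classes could be tested with the mouse as a block, a comparison added after seeing which libraries held which classes. With 6 sums and 2 residual degrees of freedom, edgeR's small p-values rest on the spread pooled over genes. A gene could pass the filter on low counts through its level in hepatocyte-like barcodes alone. Members near the floor in B-like or basophil-like cells were therefore tested too. Against B-like cells, 62 of 88 members tested rose in hepatocyte-like barcodes, where 37.9% of 1823 genes did, and 1 fell, where 33.5% did (71.4% passed in either direction). Against basophil-like cells 63 rose (39.4% of genes) and 1 fell (34% of genes, 73.4% in either direction). All that rose were nuclear encoded, of 75 tested, with a median log2 fold change of 1.64 and 1.91 against 0.25 and 0.36 over all genes. Both comparisons share the hepatocyte-like sums. All 13 mitochondrially encoded members had values below 0, with medians of −2.63 and −1.75, but the 2 mice were far apart. In edgeR's test mt-Nd4l alone passed, while DESeq2 called 11 members lower against B-like and 2 against basophil-like cells. The log2 fold changes of mt-Nd4l were −2.76 (SE 0.50, edgeR adjusted p = 2.4e-05) and −1.75 (SE 0.58, edgeR adjusted p = 0.0087). mt-Nd4l stood at 260.5 and 3.14 CPM in hepatocyte-like barcodes of control 2 and HFHC 3, at 987.5 and 131 CPM in B-like and at 545 and 57.7 CPM in basophil-like cells. Its levels in HFHC 3 rest on 5 UMIs in the hepatocyte-like barcodes, 6 in B-like and 4 in basophil-like cells. With mitochondrially encoded genes left out of the library totals, the all-gene medians moved up by 0.29 and 0.33, and the nuclear members' medians relative to them changed from 1.39 to 1.37 and from 1.55 to 1.51.

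**Figure D4:**
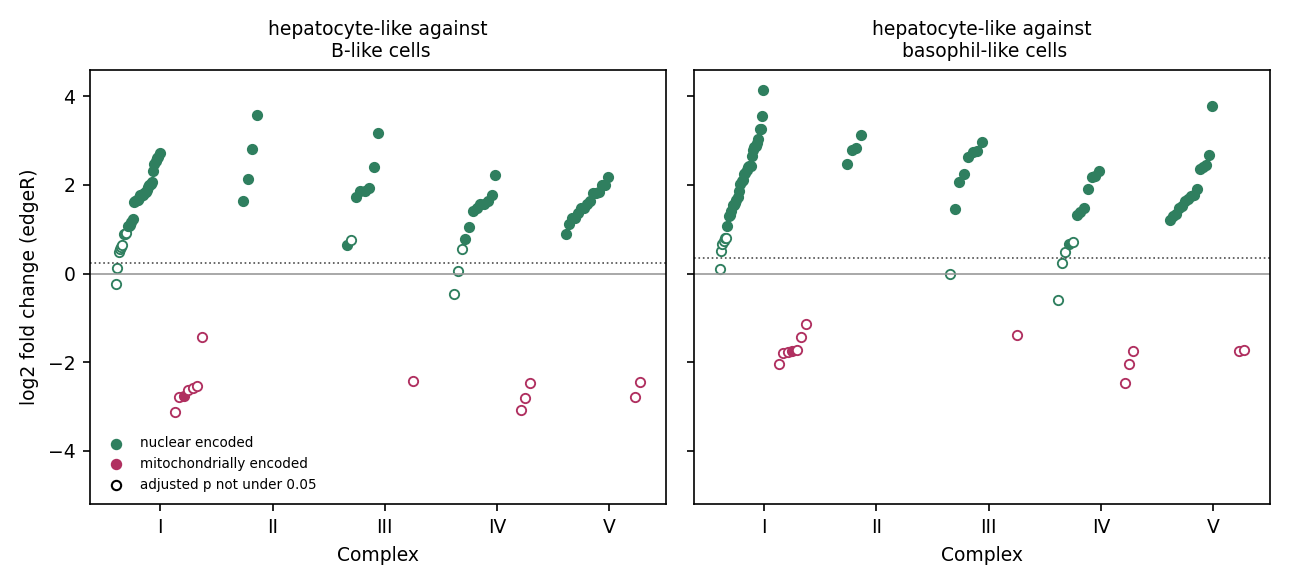
Log2 fold change (y axis, edgeR) of each tested subunit by complex, hepatocyte-like against B-like (left) and basophil-like (right) cells of control 2 and HFHC 3; green is nuclear and magenta mitochondrially encoded, filled points have an adjusted p under 0.05, and the dotted line is the median of all 1823 genes. Nearly all nuclear subunits lie above that line and all 13 mitochondrially encoded ones below 0; the 1 assembly factor tested is not drawn.

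Complex II was the complex with the highest medians, 2.48 and 2.80, and all 4 members rose in both comparisons. In control 2 and HFHC 3, each of the 4 had only 1 to 14 UMIs in B-like and 0 to 8 in basophil-like cells. The order of the complexes was not tested. Sdhb, its iron-sulfur subunit, stood at 848 and 881 CPM in hepatocyte-like barcodes of control 2 and HFHC 3, at 127 and 65.4 CPM in B-like and at 49.5 and 115 CPM in basophil-like cells. The B-like levels of Sdhb rest on 13 and 3 UMIs and the basophil-like ones on 2 and 8, in the same order of libraries. The log2 fold changes of Sdhb were 2.82 (SE 0.42, edgeR adjusted p = 1.2e-08) and 3.13 (SE 0.46, edgeR adjusted p = 7.1e-09). Sdhd, a membrane anchor, gave 3.58 and 2.82, Sdhc, the other anchor, 2.14 and 2.48, and Sdha, the flavoprotein that oxidises succinate, 1.64 and 2.78. As a share of UMIs, complex II was 0.220 and 0.236% in hepatocyte-like barcodes and 0.0124 to 0.0681% in the other named classes.

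In complex III, 7 of 8 nuclear members rose in each comparison. Uqcrq had the smallest adjusted p of all members against B-like cells, at 2436 and 3154 CPM in hepatocyte-like barcodes, 166 and 436 CPM in B-like and 248 and 534 CPM in basophil-like cells. Its log2 fold changes were 3.18 (SE 0.30, edgeR adjusted p = 1.1e-15) and 2.76 (SE 0.30, edgeR adjusted p = 2.7e-13). Uqcrfs1, the Rieske iron-sulfur protein, gave 2.96 against basophil-like cells, where it had 2 UMIs in control 2 and 12 in HFHC 3. Uqcrh, the hinge protein, was a member apart, named after its values were seen: 0.64 against B-like (edgeR adjusted p = 0.043) and −0.01 against basophil-like cells (edgeR adjusted p = 0.98), at 944 and 990 CPM in hepatocyte-like barcodes and 792 and 995 CPM in basophil-like cells. Cyc1 and Cycs, taken from a list outside the members, rose in both comparisons, Cyc1 by 2.39 and 2.71 and Cycs by 1.41 and 2.98 on the log2 scale.

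In complex V all 15 members rose in both. Atp5b stood at 2258 and 2657 CPM in hepatocyte-like barcodes, 518 and 392 CPM in B-like and 297 and 562 CPM in basophil-like cells, log2 fold changes of 2.17 (SE 0.29, edgeR adjusted p = 9.4e-10) and 2.35 (SE 0.30, edgeR adjusted p = 2.2e-10). The genes Atp5g1, Atp5g2 and Atp5g3 encode the same mature c subunit of the rotor, so reads may be hard to divide among them. Atp5g1 gave 2.00 and 3.77, Atp5g2 0.90 and 1.53, and Atp5g3 1.47 and 1.90. Against basophil-like cells Atp5g1 was at 1518 and 1613 CPM in hepatocyte-like barcodes and 74.3 and 130 CPM (3 and 9 UMIs) in basophil-like cells (edgeR adjusted p = 5.8e-14). In hepatocyte-like barcodes Atp5g1 was the highest of the 3, while in LSEC-like cells Atp5g2 was the highest in all 5 libraries, at 348 to 620 CPM against 137 to 320 CPM for Atp5g1.

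In complex I, 27 and 29 of 35 tested members rose. Ndufab1, which doubles as the mitochondrial acyl carrier protein, gave 2.62 and stood at 663 and 721 CPM in hepatocyte-like barcodes and 88.0 and 109 CPM in B-like cells. Ndufa5 gave 1.61 against B-like and 4.13 against basophil-like cells, where it was at 24.8 and 28.8 CPM, next to 466 and 546 CPM in hepatocyte-like barcodes. Its basophil-like levels rest on 1 UMI in control 2 and 2 UMIs in HFHC 3, so the size of the second value is poorly measured. Ndufc1 and Ndufc2, both of the membrane arm and named after their values were seen, differed from each other against B-like cells. Ndufc1 gave 2.53 and 3.04, while Ndufc2 gave −0.25 against B-like cells (SE 0.40, edgeR adjusted p = 0.59) and 3.26 against basophil-like cells (SE 0.79, edgeR adjusted p = 0.00018). The last value rests on 0 and 2 UMIs of Ndufc2 in basophil-like cells of control 2 and HFHC 3. Ndufc2 stood at 174 and 198 CPM in hepatocyte-like barcodes, under the 298 to 393 CPM of LSEC-like cells. The only assembly factor tested, Ndufaf8, did not pass in either.

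Complex IV had the lowest medians, 1.44 and 1.36, with 9 and 8 of 12 tested members passing. Ndufa4, first described with complex I and now placed in complex IV, had the smallest adjusted p of the complex, at 1848 and 2167 CPM in hepatocyte-like barcodes against 332 and 436 CPM in B-like cells (log2 fold change 2.22, SE 0.30, edgeR adjusted p = 5.4e-10) and 2.31 against basophil-like cells. Cox7a2 gave 1.77 and 1.91. Its relative Cox7a2l gave −0.46 (edgeR adjusted p = 0.19) and −0.60 (edgeR adjusted p = 0.088), Cox4i1 0.56 (edgeR adjusted p = 0.055) and 0.25 (edgeR adjusted p = 0.41), and Cox6a1 0.05 (edgeR adjusted p = 0.91) and 0.70 (edgeR adjusted p = 0.13). Cox6a1, a regulatory subunit, was at 307 and 384 CPM in hepatocyte-like barcodes, and LSEC-like cells lay above them in all 5 libraries, at 795 to 1124 CPM. Complex IV thus held members that did not pass in either comparison, while all tested members of complexes II and V passed in both.

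Of the other mitochondrial genes tested in these comparisons, 7 and 8 of 10 genes of the tricarboxylic acid cycle rose, and 17 and 25 of 35 genes of the mitochondrial ribosome, of which 1 fell against basophil-like cells. Over all genes 37.9 and 39.4% rose. Of 9 genes for assembly of complexes II to V, 4 rose in each comparison and 1 fell against basophil-like cells, Uqcc3 of complex III assembly (−2.46). Fh1, the cycle's fumarase, gave 2.77 and 3.67, and Suclg1, a succinate-CoA ligase subunit, 2.08 and 3.12. Of the ADP, phosphate and pore carriers, 4 and 3 of 5 rose.

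Promoters of the nuclear members were searched because most members rose together. Windows of 300 bases, 250 before and 50 after the start of the gene, came from RefSeq (GRCm38.p6), and 73 of the 87 nuclear members had one. Exact matches on either strand were counted for the NRF1 palindrome (the 10 letters in capitals in the Cox6a1 promoter that read the same on both strands), CCGGAAG (bound by ETS factors such as GABP) and AAGATGGCG (bound by YY1). They were found in 7 (9.59%), 17 (23.3%) and 7 (9.59%) of the 73 members, and in 0.977, 9.12 and 1.49% of all 27025 promoters. Any of the 3 occurred in 28 members (38.4%) and in 11.1% of all promoters. Among members that rose in both hepatocyte comparisons, 20 of 49 (40.8%) held one, and among those tested that did not, 5 of 15 (33.3%). By motif the shares were 6.12 and 13.3% for NRF1, 24.5 and 26.7% for ETS and 12.2 and 6.67% for YY1, so the order of the 2 groups was not the same for each. The 4 promoters below show, in capitals, the matches in 3 members that rose in both (Sdhb, Ndufc1 and Atp5g1, the last with no match) and in Cox6a1, which did not rise in either.
Sdhb, chr4:140961021-140961320, plus strand: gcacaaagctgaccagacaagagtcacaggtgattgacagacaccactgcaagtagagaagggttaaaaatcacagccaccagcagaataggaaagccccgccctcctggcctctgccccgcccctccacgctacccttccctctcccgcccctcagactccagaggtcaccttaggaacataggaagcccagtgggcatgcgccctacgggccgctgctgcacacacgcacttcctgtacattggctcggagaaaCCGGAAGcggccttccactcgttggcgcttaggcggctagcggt
Ndufc1, chr3:51408906-51409205, minus strand: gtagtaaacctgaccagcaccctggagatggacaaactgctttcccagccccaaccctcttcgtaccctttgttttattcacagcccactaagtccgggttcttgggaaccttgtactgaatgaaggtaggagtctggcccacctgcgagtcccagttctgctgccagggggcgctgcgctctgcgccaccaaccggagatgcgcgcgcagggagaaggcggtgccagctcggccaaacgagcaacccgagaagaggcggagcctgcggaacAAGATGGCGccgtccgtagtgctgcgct
Atp5g1, chr11:96075582-96075881, minus strand: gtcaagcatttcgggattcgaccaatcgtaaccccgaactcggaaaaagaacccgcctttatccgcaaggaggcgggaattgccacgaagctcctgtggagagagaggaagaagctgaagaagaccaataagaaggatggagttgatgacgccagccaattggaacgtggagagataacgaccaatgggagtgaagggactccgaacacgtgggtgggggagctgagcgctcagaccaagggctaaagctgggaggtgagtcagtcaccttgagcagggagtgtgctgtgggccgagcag
Cox6a1, chr5:115348909-115349208, minus strand: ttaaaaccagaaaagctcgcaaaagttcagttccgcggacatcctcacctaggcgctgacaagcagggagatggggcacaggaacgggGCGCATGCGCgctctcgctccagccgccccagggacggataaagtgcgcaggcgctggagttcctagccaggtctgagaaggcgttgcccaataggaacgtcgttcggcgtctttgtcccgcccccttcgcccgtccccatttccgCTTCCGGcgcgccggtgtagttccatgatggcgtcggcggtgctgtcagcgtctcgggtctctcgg
Sdhb holds 1 ETS match, Ndufc1 1 YY1 match, and Cox6a1 1 NRF1 match and 1 ETS match. A match here is a string of letters, not a measured site.

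Tissue isoforms of complex IV were rare and unevenly spread. Cox4i1 had 9095 UMIs in all cells and its lung isoform Cox4i2 had 2. Cox6a2, the heart and muscle form of Cox6a1, had 119 UMIs in 19 cells, among them 9 of 37 monocyte or dendritic-like cells, 4 of 30 in the erythroid gate and 3 of 1317 hepatocyte-like barcodes. It was found in 0 of 1251 LSEC-like cells, which allows a share of up to 0.240% of cells with a UMI and does not limit the share that expresses it at their lower depth. With each cell thinned to 500 UMIs (90 LSEC-like cells were shallower and left out), it was found in 5 of 37, 2 of 30, 2 of 1315 and 0 of 1161. The median depth was 7224 UMIs in monocyte or dendritic-like and 1579 in LSEC-like cells. Siglech, a marker of plasmacytoid dendritic cells that is part of the monocyte or dendritic gate, was found in 17 cells (7 of control 2, 10 of HFHC 3), and 12 of them had Cox6a2 (5 and 7). The other 7 cells with Cox6a2 were all of HFHC 3. Cox6b2, the testis form of Cox6b1, was found in 13 of 40 mesenchymal-like and 2 of 1251 LSEC-like cells, and in 5 of 37 and 0 of 1161 after thinning. Cox7a1 was found in 12 of 81 cholangiocyte-like cells and 39 of 1317 hepatocyte-like barcodes, and after thinning in 0 of 81 and 12 of 1315, so no order of these 2 classes can be read from it.

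**Figure D5:**
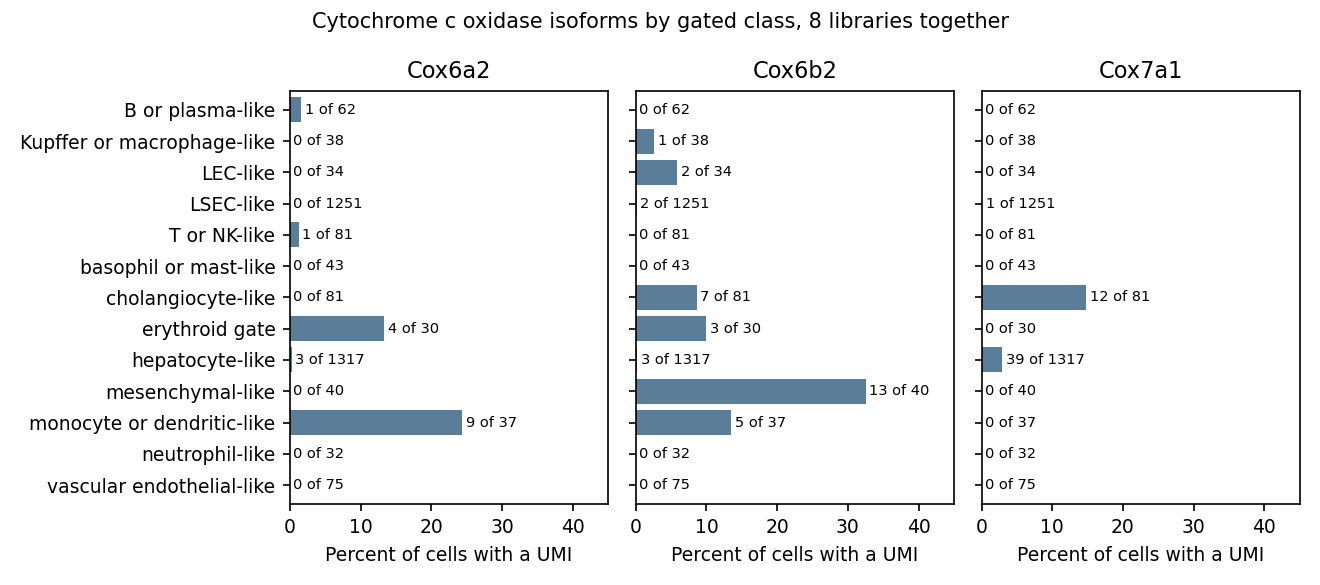
Percent of cells with at least 1 UMI (x axis) of Cox6a2, Cox6b2 and Cox7a1 in each gated class, with cells of 8 libraries pooled and not thinned; the labels give cells with a UMI of all cells. Cox6a2 is found in 9 of 37 monocyte or dendritic-like and 0 of 1251 LSEC-like cells, and Cox6b2 in 13 of 40 mesenchymal-like cells, classes of unequal depth.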

How the data were processed

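The authors deposited 1 table of unnormalised UMI counts, made with Cell Ranger 3.0.1 and Seurat on mm10, per the submitters' processing notes. Its annotation release is not given in these sources. A barcode seen in several libraries was counted in the deepest one (224 of 3416 cells removed), and every kept cell was used. No doublet caller was run. A cell with at least 2 hepatocyte markers and 2% of its UMIs from them was hepatocyte-like; any other took the class with the largest share of its markers found, at least 2. The members, marker lists, gene lists and comparisons were chosen with earlier results of these data known.

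Sums over all cells of a library, or over a class holding 10 or more cells in it, were tested by edgeR 4.0.16 (quasi-likelihood, TMM, filterByExpr, Benjamini-Hochberg over all genes tested) in R 4.3.3, checked on simulated data. DESeq2 1.42.0 was an alternative. The SE is the absolute log2 fold change over the root of the F statistic. Single shares carry Wilson 95% intervals, ratios of 2 libraries exact conditional ones, both from scipy 1.17.1 in Python 3.11.15. Shares were compared by two-sided exact permutation over libraries, so p-values measure only the spread between these mice. A UMI count of 0 allows up to 3. Named were all 13 mitochondrially encoded members, nuclear members past the threshold with the smallest adjusted p, in each complex the 2 most abundant and the 2 with the largest change, complex IV and V isoforms, and up to 3 genes of each list; genes outside this are said to be. GENCODE vM21 matched 99 of the 100 members. Depth per library was 170448 to 2309209 UMIs.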

Additional observations from a re-analysis of the deposited data

Results flagged for a closer look

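With all cells summed, the 4 succinate dehydrogenase genes made up 0.150% of UMIs in control 2, while controls 1, 3 and 4 had 0.0481, 0.0447 and 0.0459%. In HFHC 3 they made up 0.178%, while HFHC 1, 2 and 4 had 0.0539, 0.0589 and 0.0375%. In both diets the gap from that library to the next, relative to the range of the 4, exceeded what Dixon's 95% limit allows. Of 31 groups examined in this way 2 had such a gap, and a 95% limit flags about 1 of 20 groups by itself. The 2 libraries are those with 670 and 641 of the 1317 hepatocyte-like barcodes, and the share of complex II in these barcodes was 0.220 and 0.236%. Of the 2659 complex II UMIs of control 2, these barcodes held 912 of Sdhb, 538 of Sdha, 464 of Sdhd and 446 of Sdhc. Of the 4119 in HFHC 3 they held 1404, 744, 907 and 700 in the same order. The gaps without these barcodes were not tested.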

How the results depend on the processing

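In the main tests the libraries were not paired by the numbers in the descriptions. The deviations of same-numbered libraries correlated at 0.50, −0.08, −0.42 and 0.16, and 2 of 4 control libraries correlated best with the HFHC library of their own number. So few pairs cannot show whether the numbers pair the libraries. With the replicate block, 0 genes passed in all cells, and the share differences were −0.588 (exact permutation p = 0.5), 0.134 (p = 1) and −0.49 (p = 0.75). Leaving out 1 library at a time gave −1.09 to 0.176 points for the mitochondrially encoded share, −0.587 to 0.555 for the nuclear share and −0.95 to 0.37 for the log2 ratio, and 3 to 22 genes passed in LSEC-like cells. The barcode-sharing libraries alone gave −0.130 points for the nuclear share; the other 3 libraries alone gave 0.0662 for the mitochondrially encoded share and 1 gene passing in all cells. The vascular minus LSEC log2 ratio was 0.0224 without control 2 and −0.246 without HFHC 4. In LSEC-like cells 64 genes passed with DESeq2, 7 with no filter, and 1 each with mitochondrially encoded genes left out of totals or barcode copies kept. In vascular cells 53 genes passed with DESeq2, and 1 member was lower with at least 5 cells. Against B-like cells 11 members fell with DESeq2 and 3 with no filter, against basophil-like cells 2 and 0, and 2539 and 2564 genes passed with no filter. With mitochondrially encoded genes left out, 0 members fell in both, but mt-Nd4l and the other mitochondrially encoded members were then not tested. With no filter Cox7a2l was 0.72 and 0.57, Ndufc2 0.94 (B-like) and Uqcrh 1.17 (basophil-like); with mitochondrially encoded genes left out Ndufc2 was 0.0290 and Uqcrh 0.29, and with 3 markers per gate Uqcrh was 0.000835. Apart from these 7 reversals, 8 values of named members lost the threshold, 15 gained it and 486 did neither. The cause was not tested. No fit could be made with at least 20 cells for vascular or hepatocyte-like comparisons, with 1 library left out of 2, or with a block in LSEC-like cells.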
